A study of Rattus norvegicus with 12 samples.

Results

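The Wnt genes described here are the secreted Wnt ligands, their Frizzled and LRP receptors, the R-spondins, the secreted antagonists of the SFRP, DKK and WIF families, and Axin2. They were taken by gene symbol (Wnt, Fzd, Sfrp, Dkk and Rspo with a number, and Frzb, Wif1, Lrp5, Lrp6 and Axin2) from a table of expected RNA-seq counts per gene. The symbols gave 46 genes of the 30562 listed, namely 19 ligands, 10 Frizzled receptors, 2 LRP coreceptors, 4 R-spondins, 10 antagonists and Axin2. Of these, 36 had enough counts to be tested, among 15712 genes tested in all. The tissue was rat sciatic nerve, sampled as 12 stumps that formed 4 groups of 3. VP4:2 stumps had a truncated-cone conduit of the 4:2 form loaded with verteporfin, a compound that blocks binding of the coactivator YAP to its TEAD partners, and CC4:2 stumps had the same form of conduit without it. CC4:4 stumps had a conduit of the 4:4 form, and Control stumps were labelled only as control. The labels did not give strain, age, time after surgery, the treatment of the control stumps or what the numbers 4:2 and 4:4 stand for. They did not say either whether replicates were different animals. The p-values thus cover only the spread among these libraries, part of which may be technical.

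Wnt proteins are lipid-modified ligands that bind a Frizzled receptor. With LRP5 or LRP6 as coreceptor they stabilise β-catenin, which acts with TCF/LEF factors on target genes such as Axin2, and through other receptors they act on cell polarity and movement. R-spondins raise the level of Frizzled at the cell surface, SFRP proteins and WIF1 bind Wnt ligands outside the cell, and DKK proteins such as DKK2 bind the LRP coreceptors. In peripheral nerve, Wnt signalling is known to act on Schwann cells and their myelin genes. The roles given here and below are known mainly from mouse and human work.

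Totals ranged from 13763067 to 18632280 counts a sample, and the 46 genes together held 0.0859% to 0.246% of them. Control replicate 1 stood apart from the other control stumps: it had the lowest summed level of Schwann and myelin markers of all 12 samples. Where leaving out 1 library ended the call of a Wnt gene described below, that library is named. The labelled tissue was checked against its markers, and all 10 Schwann and myelin markers were detected. Their summed level was 13440 to 19960 CPM in VP4:2, 14810 to 38220 in CC4:2, 2862 to 3647 in CC4:4 and 490 to 4937 in Control. In CC4:2 against Control 10 of 10 were higher. Of 6 perineurial markers 4 were detected, Lypd2 was at 0 and Krt19 was not matched. They summed to 1460 to 2028 CPM in VP4:2, 3739 to 4269 in CC4:2, 432 to 665 in CC4:4 and 328 to 805 in Control. Of these 4, Slc2a1, Itgb4 and Cldn1 were higher in CC4:2 than in Control and Msln was lower. The largest term of the perineurial sum was Itgb4, which averaged 1343 CPM in VP4:2, 3233 in CC4:2, 288 in CC4:4 and 258 in Control. The 8 macrophage markers summed to 4166 to 5198 CPM in VP4:2, 1225 to 1474 in CC4:2, 2909 to 4179 in CC4:4 and 4092 to 4177 in Control. The 7 lymphocyte markers summed to 323 to 1169 CPM in VP4:2, 15.7 to 193 in CC4:2, 2234 to 5130 in CC4:4 and 736 to 6383 in Control. In CC4:2 against Control, 8 of 10 fibroblast, 6 of 6 adipocyte, 1 of 4 endothelial and 1 of 6 pericyte and smooth muscle markers were higher. Lower were 4 of 4 neutrophil, 7 of 7 lymphocyte and 5 of 8 macrophage markers, and 0 of 4 skeletal muscle markers were called. Of all tested genes 20.3% were higher and 23.2% lower there, and the endothelial and pericyte counts were near these shares. The summed skeletal muscle markers differed widely within groups, at 169 to 5626 CPM in VP4:2, 160 to 9344 in CC4:2, 180 to 2298 in CC4:4 and 3.43 to 6042 in Control. CC4:2 replicate 2 was the highest of the 12 at 9344 CPM, and CC4:2 replicates 1 and 3 had 896 and 160 CPM. Of the 38 edgeR calls of Wnt genes in comparisons with CC4:2, 15 were lost without CC4:2 replicate 2, 13 without CC4:2 replicate 3 and 5 without CC4:2 replicate 1, and the part of the muscle markers in them was not tested. The Schwann, perineurial, fibroblast, adipocyte and immune cell markers thus differed, like the Wnt genes, between CC4:2 and Control. Over the 4 groups not all of them followed the Wnt genes. Summed fibroblast markers were 4298 to 5166 CPM in CC4:2, within the 2145 to 5933 of Control. Summed macrophage markers in VP4:2 were not below those in Control. The part of cell make-up in the results below was not tested. In bulk tissue, fewer cells of a type and less RNA per cell cannot be told apart.

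**Figure D1:**
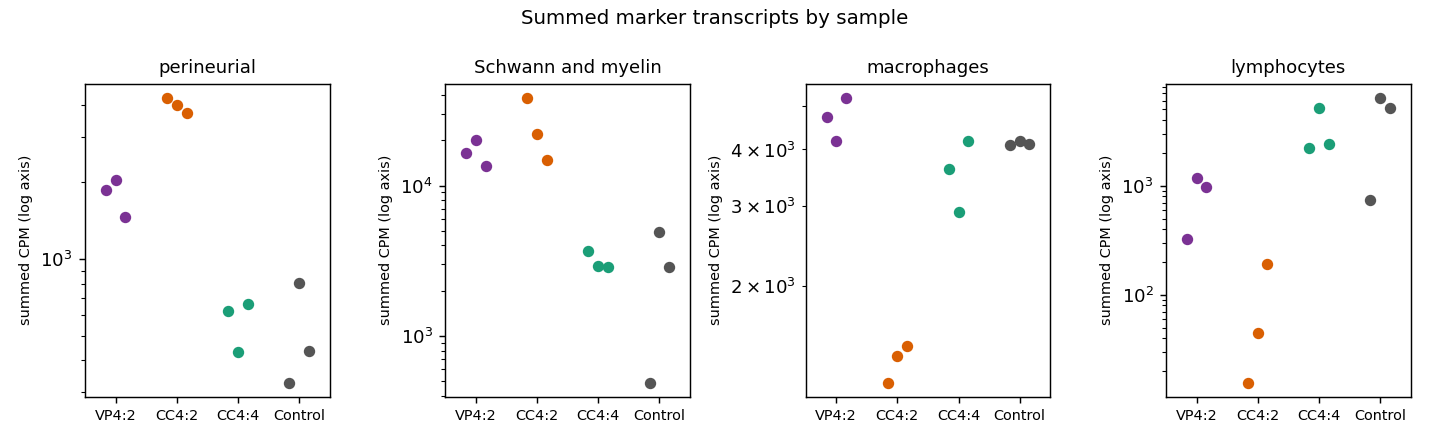
Summed CPM (log axis) of the perineurial, Schwann and myelin, macrophage and lymphocyte markers in each of the 12 samples, by group. CC4:2 samples were highest for perineurial markers (3739 to 4269 CPM) and lowest for macrophage (1225 to 1474 CPM) and lymphocyte markers (15.7 to 193 CPM), with the VP4:2 samples between CC4:2 and Control for perineurial markers.

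Most of the tested Wnt genes that differed were higher in stumps with the CC4:2 conduit. Against Control, 16 of 36 were higher in CC4:2 and 2 were lower, where 20.3% of all tested genes were higher and 23.2% lower. A gene was called where the edgeR quasi-likelihood test gave a Benjamini-Hochberg adjusted p under 0.05 over all tested genes. The higher ones included 6 ligands (Wnt2, Wnt2b, Wnt6, Wnt9a, Wnt10b and Wnt16) and 5 of 9 tested Frizzled receptors (Fzd2, Fzd3, Fzd4, Fzd7 and Fzd8). The others were both LRP coreceptors, Rspo2, and the antagonists Sfrp5 and Dkk2. The lower ones were the ligands Wnt4 and Wnt9b. The median log2 fold change of the 36 genes was 1.02, against -0.05 over all tested genes, with 26 of 36 above 0 where 47.7% of all tested genes were.

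Between the conduits, CC4:2 stumps had 14 of 36 Wnt genes higher and 5 lower than CC4:4 stumps, where 18.5% of all tested genes were higher and 20.7% lower. The median was 0.83, against 0.01 over all tested genes. Beside genes also named above, Axin2 was among the higher ones, and Wnt5a, Wnt5b and Rspo1 were among the lower ones. No Wnt gene was called in CC4:4 against Control, where edgeR called 0% of all tested genes higher and 0% lower, and DESeq2 called 0 of the 36 and 0.0636% of all tested genes. At an unadjusted p under 0.05 the edgeR test held 1 Wnt gene there, Rspo2, where 5.28% of all tested genes passed that level. With 1 library left out, the edgeR calls of Wnt genes stayed at 0, and 0 to 295 of all tested genes were called, with 295 without Control replicate 1. Wnt genes at an unadjusted p under 0.05 then numbered 1 to 9, with 9 without Control replicate 1, 4 without CC4:4 replicate 2 and 3 without Control replicate 2. The share of all tested genes at that level was taken only with all 12 samples (5.28%), so these counts have no background beside them.

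Stumps with verteporfin in the conduit had 1 Wnt gene higher than CC4:2 stumps, the antagonist Sfrp1, and 0 lower, where 5.23% of all tested genes were higher and 0.999% lower. At an unadjusted p under 0.05 there were 11 of 36 Wnt genes, where 22.1% of all tested genes passed that level. DESeq2 called 5 of 36 (Sfrp1 higher and Lrp6, Dkk2, Fzd7 and Wnt6 lower), where it called 11.9% of all tested genes, a share close to that of the Wnt genes. The median over the 36 genes was -0.55, against -0.03 over all tested genes, and 27 of 36 were below 0 where 52.6% of all tested genes were. In 12 of 36 all 3 VP4:2 values lay below all 3 CC4:2 values, where 14.6% of all tested genes did so, and in 3 of 36 (Rspo1, Sfrp1 and Wnt5b) they lay above, where 17.5% did. The 12 were Wnt6, Wnt7b, Wnt9a, Wnt10a, Wnt11, Wnt16, Fzd2, Fzd3, Fzd7, Lrp6, Sfrp5 and Dkk2.

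Against Control, VP4:2 stumps had 5 of 36 Wnt genes higher (Wnt6, Fzd7, Fzd8, Lrp6 and Sfrp5) and 2 lower (Wnt4 and Wnt9b), where 9.3% of all tested genes were higher and 9.57% lower. The median was 0.51, against -0.04 over all tested genes. With only the samples sequenced on a NovaSeq, replicates 1 and 2 of each group, none of the 7 calls was made, and 19 genes were called in all. In that setting 13 Wnt genes had an unadjusted p under 0.05, and the share of all tested genes at that level was not taken. Without Control replicate 1 the count was 11 of 36, with Wnt9a, Fzd1, Fzd2, Fzd3 and Sfrp4 gained as higher and Wnt9b lost. Calls over all genes rose too, to 4294 of 15975 from 2964 of 15712, a share close to that of the Wnt genes. With all 12 samples, DESeq2 called 13 of 36 in VP4:2 against Control, where it called 25.8% of all tested genes. In CC4:2 its calls covered 22 of 36 Wnt genes against Control and 21 of 36 against CC4:4, where 47.6% and 43.7% of all tested genes were called. The comparisons share samples: CC4:2 stands in 3 of the 5 and Control in 3, so they are not independent of each other, and their values are given side by side.

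**Figure D2:**
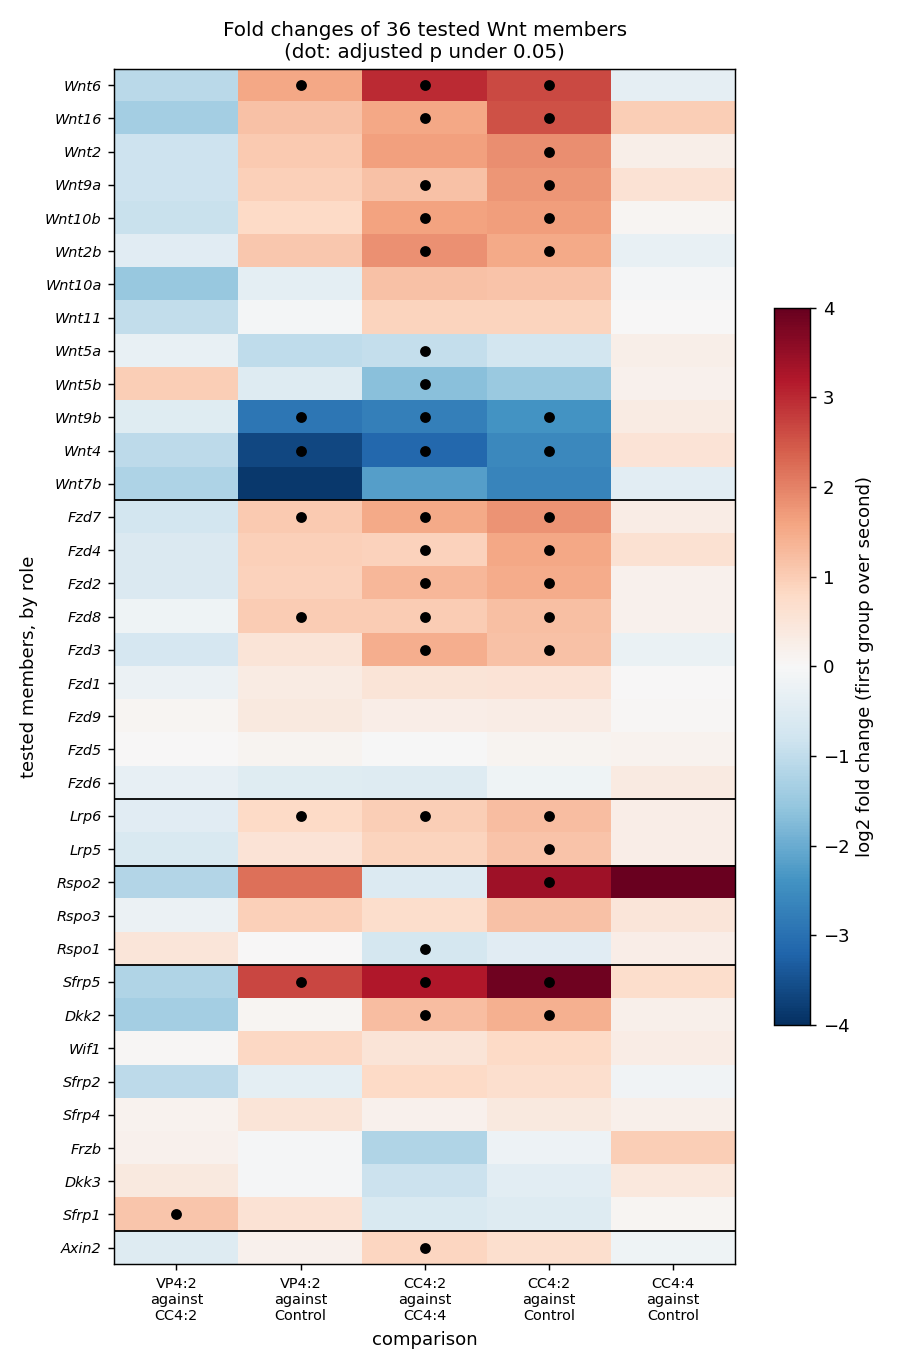
Log2 fold change (colour, first group over second) of the 36 tested Wnt genes in the 5 comparisons, ordered by role, with a dot where the adjusted p was under 0.05. CC4:2 against Control and CC4:2 against CC4:4 hold 18 and 19 dots, VP4:2 against Control holds 7, VP4:2 against CC4:2 holds 1 and CC4:4 against Control holds 0.

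Promoter sequences of 4 of the Wnt genes are shown first. Axin2 is the textbook β-catenin target, Fzd7 is a called receptor, and Sfrp5 and Wnt6 had the largest log2 fold changes among called genes of their role in CC4:2 against Control. Each runs 5′ to 3′ on the gene's strand, from 250 bases before to 50 bases after the start, and comes from RefSeq on the GRCr8 build, in which 31 of the 46 genes were matched by symbol. Capitals mark the core letters bound by TCF/LEF factors (CTTTGA, or TCAAAG on the other strand). A search for the core letters bound by TEAD factors (GGAATG, or CATTCC on the other strand) gave no match in these 4 windows.
Axin2, chr10:94398535-94398834, plus strand: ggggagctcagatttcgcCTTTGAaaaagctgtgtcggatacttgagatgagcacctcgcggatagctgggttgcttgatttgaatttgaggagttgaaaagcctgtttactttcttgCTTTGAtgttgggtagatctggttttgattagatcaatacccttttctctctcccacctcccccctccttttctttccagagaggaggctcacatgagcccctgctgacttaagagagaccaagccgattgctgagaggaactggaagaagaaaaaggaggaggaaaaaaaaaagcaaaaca
Fzd7, chr9:68425288-68425587, plus strand: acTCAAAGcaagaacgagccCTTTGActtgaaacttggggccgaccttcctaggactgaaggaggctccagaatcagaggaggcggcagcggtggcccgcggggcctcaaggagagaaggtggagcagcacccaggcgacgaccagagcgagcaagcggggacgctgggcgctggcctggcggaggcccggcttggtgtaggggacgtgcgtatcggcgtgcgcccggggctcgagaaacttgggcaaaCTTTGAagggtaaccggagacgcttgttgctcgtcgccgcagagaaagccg
Sfrp5, chr1:250960463-250960762, minus strand: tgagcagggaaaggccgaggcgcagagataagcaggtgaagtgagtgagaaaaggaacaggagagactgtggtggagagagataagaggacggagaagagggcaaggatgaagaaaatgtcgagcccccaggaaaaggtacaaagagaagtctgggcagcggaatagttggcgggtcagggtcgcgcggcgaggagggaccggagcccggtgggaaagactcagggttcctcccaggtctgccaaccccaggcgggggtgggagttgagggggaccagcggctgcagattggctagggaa
Wnt6, chr9:83778302-83778601, plus strand: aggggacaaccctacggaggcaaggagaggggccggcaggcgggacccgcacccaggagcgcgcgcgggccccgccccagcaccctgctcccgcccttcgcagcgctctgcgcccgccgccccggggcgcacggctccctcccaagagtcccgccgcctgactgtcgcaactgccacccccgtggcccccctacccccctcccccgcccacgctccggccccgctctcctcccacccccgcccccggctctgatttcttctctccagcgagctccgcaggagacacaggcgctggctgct
The Axin2 window held 2 TCF/LEF matches, starting at -232 and -132 from the start, and the Fzd7 window held 3, at -248, -230 and -1, while the Sfrp5 and Wnt6 windows held 0. Over all 33469 promoters in the table, 16.1% held the TCF/LEF letters and 14.2% the TEAD letters. Among the 31 matched Wnt genes, 4 held the TCF/LEF letters (Axin2, Dkk1, Fzd7 and Wnt8a) and 1 the TEAD letters (Wnt8a). A match describes letters and is not a binding site, and its absence says only that the letters are not in this window.

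Levels below are TMM-scaled CPM (counts relative to the scaled library total), given for replicates 1, 2 and 3 in that order. Differences are log2 fold changes ± SE with 3 samples a group and the edgeR adjusted p.

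Among the 19 ligands, 13 were tested, and in CC4:2 against Control 6 were higher, 2 were lower and 5 were not called, where 20.3% of all tested genes were higher and 23.2% lower. Wnt6 had 18.4, 19.98 and 12.9 CPM in VP4:2 stumps, 46.7, 32.6 and 28.1 in CC4:2, 4.40, 4.07 and 5.13 in CC4:4 and 4.61, 8.74 and 4.04 in Control. All CC4:2 values lay above those of every other group, and all VP4:2 values lay above CC4:4 and Control, which overlapped each other. Wnt6, a ligand expressed in developing epithelia, was -1.07 ± 0.29 (adjusted p = 0.0585) in VP4:2 against CC4:2, 1.56 ± 0.31 (adjusted p = 0.00897) in VP4:2 against Control, 2.98 ± 0.32 (adjusted p = 0.000155) in CC4:2 against CC4:4 and 2.63 ± 0.31 (adjusted p = 0.000184) in CC4:2 against Control. Its 3 calls each held with each library left out, and the lower level in VP4:2 than in CC4:2 was called by DESeq2 but not by edgeR.

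Wnt9a had 8.22, 6.28 and 4.92 CPM in VP4:2 stumps, 9.79, 14.1 and 10.4 in CC4:2, 5.22, 4.95 and 5.06 in CC4:4 and 4.95, 3.12 and 1.94 in Control. The CC4:2 samples were the highest 3 of the 12, and the other groups overlapped. Wnt9a, known for its part in joint formation, differed by 1.76 ± 0.32 (adjusted p = 0.00167) in CC4:2 against Control, a call that held whichever of the 6 libraries was omitted (1.52 to 2.17). The difference in CC4:2 against CC4:4 was 1.17 ± 0.32 (adjusted p = 0.0139), a call that was lost without CC4:2 replicate 2 (0.99 to 1.27 over the 6 omissions, adjusted p up to 0.0505). Its value in VP4:2 against CC4:2 was -0.82 ± 0.31 (adjusted p = 0.153). Wnt16 had 0.822, 0.537 and 0.433 CPM in VP4:2 stumps, 1.91, 1.80 and 0.940 in CC4:2, 0.352, 0.542 and 0.684 in CC4:4 and 0.225, 0.312 and 0.242 in Control. CC4:2 was again above the other groups without overlap, on few counts. Wnt16, known for its effect on bone thickness, differed by 2.55 ± 0.47 (adjusted p = 0.00176) in CC4:2 against Control, where the call held whichever of the 6 libraries was omitted (2.38 to 2.81). It differed by 1.55 ± 0.43 (adjusted p = 0.0163) in CC4:2 against CC4:4, where the call was lost without CC4:2 replicate 1 or CC4:4 replicate 1 (1.33 to 1.81 over the 6 omissions, adjusted p up to 0.0617), and by -1.36 ± 0.42 (adjusted p = 0.0884) in VP4:2 against CC4:2.

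Wnt2b had 9.54, 12.5 and 5.03 CPM in VP4:2 stumps, 17.1, 14.8 and 5.48 in CC4:2, 5.28, 1.97 and 3.15 in CC4:4 and 3.37, 5.47 and 4.12 in Control. CC4:2 replicate 3 was far below the other CC4:2 samples and only just above the highest Control and CC4:4 values, and VP4:2 overlapped all other groups. Wnt2b, a ligand of the β-catenin branch, differed by 1.53 ± 0.49 (adjusted p = 0.0276) in CC4:2 against Control, where the call was lost without CC4:2 replicate 1, CC4:2 replicate 2, Control replicate 1 or Control replicate 3 (1.23 to 1.89 over the 6 omissions, adjusted p up to 0.0920). It differed by 1.84 ± 0.50 (adjusted p = 0.0140) in CC4:2 against CC4:4, where the call was lost without CC4:4 replicate 2 (1.54 to 2.28 over the 6 omissions, adjusted p up to 0.0582).

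Wnt10b had 1.15, 0.967 and 0.974 CPM in VP4:2 stumps, 0.900, 3.04 and 1.77 in CC4:2, 1.17, 0.407 and 0.274 in CC4:4 and 0.506, 0.703 and 0.565 in Control. Wnt2 had 0.219, 0.591 and 0.920 CPM in VP4:2 stumps, 0.476, 1.30 and 1.30 in CC4:2, 0.235, 0.203 and 0.547 in CC4:4 and 0.337, 0.156 and 0.323 in Control. For both genes CC4:2 lay above Control without overlap but overlapped CC4:4, and CC4:2 replicate 1 was the lowest of its group. Wnt10b, known to restrain fat cell formation, differed by 1.68 ± 0.57 (adjusted p = 0.0353) in CC4:2 against Control, where the call was lost without CC4:2 replicate 2, CC4:2 replicate 3, Control replicate 1, Control replicate 2 or Control replicate 3 (1.18 to 2.02 over the 6 omissions, adjusted p up to 0.143). Its difference in CC4:2 against CC4:4 was 1.59 ± 0.56 (adjusted p = 0.0447), where the call was lost without CC4:2 replicate 2, CC4:2 replicate 3, CC4:4 replicate 2 or CC4:4 replicate 3 (1.09 to 2.47 over the 6 omissions, adjusted p up to 0.175). Wnt2, a ligand needed for lung specification, differed by 1.87 ± 0.66 (adjusted p = 0.0403) in CC4:2 against Control, where the call was lost without CC4:2 replicate 2, CC4:2 replicate 3, Control replicate 1, Control replicate 2 or Control replicate 3 (1.64 to 2.21 over the 6 omissions, adjusted p up to 0.111), and by 1.63 ± 0.64 (adjusted p = 0.0648) in CC4:2 against CC4:4.

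Wnt4 and Wnt9b, both known from kidney development, moved the other way. Wnt4 had 0.274, 0.161 and 0.0541 CPM in VP4:2 stumps, 0.212, 0.733 and 0.104 in CC4:2, 2.52, 4.74 and 1.98 in CC4:4 and 3.21, 1.01 and 2.02 in Control. Every VP4:2 and CC4:2 value lay below every CC4:4 and Control value. Wnt4 differed by -3.63 ± 0.78 (adjusted p = 0.0122) in VP4:2 against Control, where the call was lost without VP4:2 replicate 2 (-4.19 to -3.16 over the 6 omissions, adjusted p up to 0.0513), and by -3.13 ± 0.72 (adjusted p = 0.00671) in CC4:2 against CC4:4, where the call held whichever of the 6 libraries was omitted (-4.22 to -2.67). In CC4:2 against Control it differed by -2.57 ± 0.72 (adjusted p = 0.0149), where the call was lost without CC4:2 replicate 1 (-3.67 to -2.10 over the 6 omissions, adjusted p up to 0.0535). Wnt9b had 0.110, 0.161 and 0.108 CPM in VP4:2 stumps, 0.424, 0.0564 and 0.0522 in CC4:2, 1.35, 1.49 and 0.821 in CC4:4 and 1.91, 0.547 and 0.404 in Control. VP4:2 and CC4:2 lay below CC4:4 without overlap, on sums of 7 and 10 counts over the 3 libraries, while CC4:2 replicate 1 was above Control replicate 3.

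Wnt9b differed by -2.88 ± 0.84 (adjusted p = 0.0374) in VP4:2 against Control, where the call was lost without VP4:2 replicate 1, VP4:2 replicate 2, VP4:2 replicate 3 or Control replicate 1 (-3.20 to -1.85 over the 6 omissions, adjusted p up to 0.119). Its difference in CC4:2 against CC4:4 was -2.73 ± 0.80 (adjusted p = 0.0204), where the call was lost without CC4:2 replicate 2, CC4:2 replicate 3 or CC4:4 replicate 2 (-4.31 to -2.30 over the 6 omissions, adjusted p up to 0.0677). The difference in CC4:2 against Control was -2.40 ± 0.80 (adjusted p = 0.0325), where the call was lost without CC4:2 replicate 2, CC4:2 replicate 3 or Control replicate 1 (-3.99 to -1.38 over the 6 omissions, adjusted p up to 0.176). Neither was called in VP4:2 against CC4:2, where Wnt4 was -1.05 ± 0.83 and Wnt9b -0.47 ± 0.93.

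Wnt5a and Wnt5b act mostly through receptors other than the β-catenin branch. Wnt5a had 9.15, 14.0 and 17.4 CPM in VP4:2 stumps, 13.9, 17.5 and 18.7 in CC4:2, 31.2, 36.2 and 29.5 in CC4:4 and 45.7, 18.7 and 18.2 in Control. Wnt5b had 4.06, 3.49 and 3.79 CPM in VP4:2 stumps, 1.32, 2.71 and 1.67 in CC4:2, 4.63, 5.15 and 8.28 in CC4:4 and 11.02, 1.95 and 2.99 in Control. For both genes CC4:2 lay below CC4:4 without overlap, and Control replicate 1 was the highest of all 12 samples. Wnt5a differed by -0.95 ± 0.35 (adjusted p = 0.0495) in CC4:2 against CC4:4, where the call was lost without CC4:2 replicate 1, CC4:2 replicate 2, CC4:2 replicate 3, CC4:4 replicate 1, CC4:4 replicate 2 or CC4:4 replicate 3 (-1.04 to -0.83 over the 6 omissions, adjusted p up to 0.139). Wnt5b differed there by -1.66 ± 0.57 (adjusted p = 0.0393), where the call was lost without CC4:2 replicate 1, CC4:2 replicate 3, CC4:4 replicate 2 or CC4:4 replicate 3 (-2.001 to -1.37 over the 6 omissions, adjusted p up to 0.117). All 3 VP4:2 values of Wnt5b lay above CC4:2 and below CC4:4, with 0.99 ± 0.56 (adjusted p = 0.335) in VP4:2 against CC4:2. Against Control, DESeq2 called Wnt5a lower in VP4:2 (-1.03, adjusted p = 0.0204) and Wnt5b lower in CC4:2 (-1.48, adjusted p = 0.0225), and edgeR called neither with all 12 samples.

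**Figure D3:**
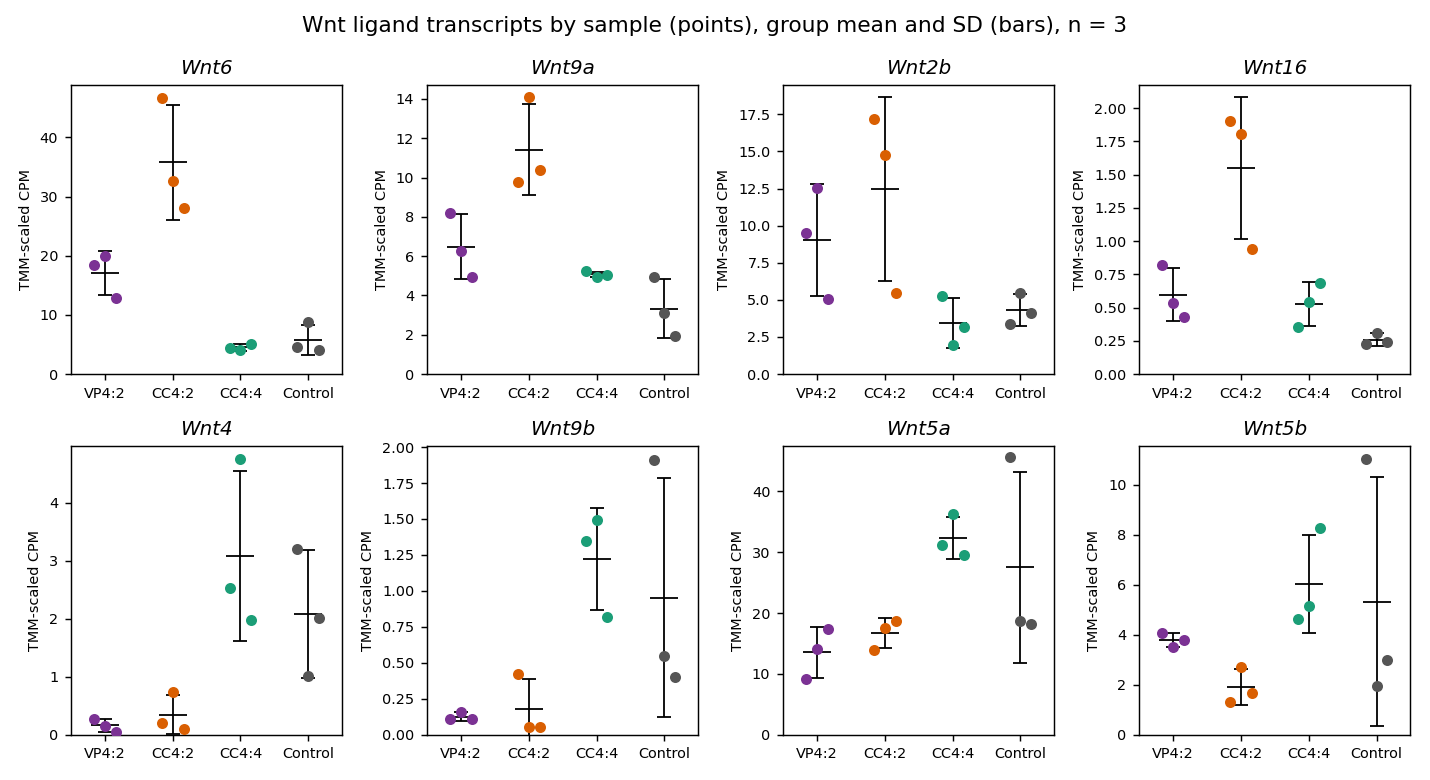
TMM-scaled CPM of 8 Wnt ligand genes in each sample, with the group mean and SD (n = 3); the vertical scale differs between panels. Wnt6 averaged 17.1 ± 3.72 CPM in VP4:2, 35.8 ± 9.71 in CC4:2, 4.53 ± 0.544 in CC4:4 and 5.80 ± 2.57 in Control, and Wnt4 and Wnt9b were near 0 in VP4:2 and CC4:2.

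The other tested ligands, Wnt7b, Wnt10a and Wnt11, were called in no comparison with all 12 samples in the edgeR test. Wnt7b had 0.164, 0.107 and 0.108 CPM in VP4:2 stumps, 0.212, 0.338 and 0.365 in CC4:2, 0.411, 2.44 and 1.505 in CC4:4 and 5.29, 0.0781 and 0.323 in Control. Control replicate 1 held nearly all of the control level of this gene. DESeq2 called Wnt7b lower in VP4:2 (-3.91, adjusted p = 0.00896) and in CC4:2 (-2.63, adjusted p = 0.0474) than in Control, and edgeR called both without Control replicate 2 (adjusted p = 0.0255 and 0.0279). Wnt10a had 3.78, 2.04 and 1.89 CPM in VP4:2 stumps, 8.21, 6.99 and 7.00 in CC4:2, 1.64, 5.83 and 2.33 in CC4:4 and 0.787, 4.06 and 5.33 in Control. All 3 CC4:2 values lay above every other sample, with 1.14 ± 0.62 (adjusted p = 0.159) in CC4:2 against Control and -1.52 ± 0.62 (adjusted p = 0.181) in VP4:2 against CC4:2. With only the 6 samples of VP4:2 and CC4:2 in the fit, edgeR called Wnt10a lower in VP4:2 (-1.51, adjusted p = 0.0327). Wnt11, a ligand of cell movement in the embryo, ranged from 0.932 to 4.74 CPM over the 12 samples and was -0.98 ± 0.44 (adjusted p = 0.225) in VP4:2 against CC4:2. Wnt6 and Wnt10a are neighbours on the chromosome among protein-coding genes in RefSeq, as are Wnt9b and Wnt3, Wnt9a and Wnt3a, and Wnt10b and Wnt1.

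The other 6 ligand genes were too low to test. Wnt7a, Wnt8a and Wnt8b were at 0 in all 12 libraries, as was the antagonist Dkk4, and a count of 0 allows up to 3 counts, or 0.157 to 0.242 CPM in a library, for counting error only. Wnt1, Wnt3 and Wnt3a, with Fzd10, Rspo4 and Dkk1, had at most 5 counts in any library. Dkk1 had 3 counts over the VP4:2 libraries, 1 over CC4:2 and 0 over CC4:4 and over Control.

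Of the 10 Frizzled receptor genes 9 were tested, and 5 were higher in CC4:2 than in Control, 0 were lower and 4 were not called, where 20.3% of all tested genes were higher and 23.2% lower. Fzd7 had 33.4, 36.7 and 26.6 CPM in VP4:2 stumps, 41.2, 66.8 and 52.7 in CC4:2, 22.1, 13.7 and 20.9 in CC4:4 and 14.2, 19.7 and 12.5 in Control. VP4:2 lay below CC4:2 and above CC4:4 and Control without overlap, and CC4:4 and Control overlapped. Fzd7, a receptor of the β-catenin branch, differed by -0.73 ± 0.24 (adjusted p = 0.110) in VP4:2 against CC4:2, 1.06 ± 0.25 (adjusted p = 0.0168) in VP4:2 against Control, 1.501 ± 0.25 (adjusted p = 0.00121) in CC4:2 against CC4:4 and 1.79 ± 0.25 (adjusted p = 0.000402) in CC4:2 against Control. Both CC4:2 calls held with each library left out, while the VP4:2 against Control call was lost without VP4:2 replicate 1, VP4:2 replicate 2 or Control replicate 3 (0.95 to 1.29 over the 6 omissions, adjusted p up to 0.0690).

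Fzd2 had 123, 127 and 104 CPM in VP4:2 stumps, 182, 164 and 181 in CC4:2, 68.5, 55.3 and 85.7 in CC4:4 and 88.8, 66.0 and 32.1 in Control. CC4:2 was above all other samples, VP4:2 was above CC4:4 and Control, and CC4:4 overlapped Control. Fzd2, which can bind WNT5A, differed by 1.33 ± 0.30 (adjusted p = 0.00586) in CC4:2 against CC4:4 and 1.495 ± 0.30 (adjusted p = 0.00282) in CC4:2 against Control, and both calls held with each library left out. Its values were -0.57 ± 0.30 (adjusted p = 0.284) in VP4:2 against CC4:2 and 0.92 ± 0.30 (adjusted p = 0.0528) in VP4:2 against Control. Fzd8 had 26.4, 30.1 and 19.0 CPM in VP4:2 stumps, 29.3, 33.0 and 22.7 in CC4:2, 16.4, 11.2 and 14.1 in CC4:4 and 15.6, 11.3 and 10.02 in Control. VP4:2 and CC4:2 overlapped each other and lay above CC4:4 and Control, which overlapped each other too.

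Fzd8, also a receptor of the β-catenin branch, differed by 1.03 ± 0.24 (adjusted p = 0.0157) in VP4:2 against Control, where the call was lost without VP4:2 replicate 1, VP4:2 replicate 2 or Control replicate 3 (0.88 to 1.24 over the 6 omissions, adjusted p up to 0.0631). It differed by 1.02 ± 0.24 (adjusted p = 0.00658) in CC4:2 against CC4:4 and by 1.20 ± 0.24 (adjusted p = 0.00258) in CC4:2 against Control, and both calls held with each library left out. Its value in VP4:2 against CC4:2 was -0.17 ± 0.23 (adjusted p = 0.703). Fzd3 had 3.07, 3.17 and 3.57 CPM in VP4:2 stumps, 6.30, 4.00 and 5.43 in CC4:2, 2.35, 1.69 and 1.64 in CC4:4 and 3.37, 1.87 and 1.61 in Control. The CC4:2 samples were the highest 3 of the 12, and Control replicate 1 lay within the VP4:2 range. Fzd3, known for axon guidance and cell polarity, differed by 1.46 ± 0.32 (adjusted p = 0.00504) in CC4:2 against CC4:4 and by 1.18 ± 0.32 (adjusted p = 0.0121) in CC4:2 against Control, and both calls held with each library left out.

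Fzd4 had 40.3, 53.9 and 66.7 CPM in VP4:2 stumps, 49.8, 91.7 and 100.2 in CC4:2, 54.0, 26.02 and 46.5 in CC4:4 and 32.7, 29.0 and 21.7 in Control. CC4:2 replicate 1 lay below CC4:4 replicate 1, while VP4:2 and CC4:2 were both above Control without overlap. Fzd4, the receptor of Norrin in retinal vessels, differed by 1.53 ± 0.33 (adjusted p = 0.00390) in CC4:2 against Control, where the call held whichever of the 6 libraries was omitted (1.35 to 1.79). It differed by 0.93 ± 0.32 (adjusted p = 0.0409) in CC4:2 against CC4:4, where the call was lost without CC4:2 replicate 2, CC4:2 replicate 3, CC4:4 replicate 2 or CC4:4 replicate 3 (0.69 to 1.19 over the 6 omissions, adjusted p up to 0.141), and by 0.95 ± 0.32 (adjusted p = 0.0645) in VP4:2 against Control. Fzd1, Fzd5, Fzd6 and Fzd9 were called in no comparison with all 12 samples in the edgeR test. Without Control replicate 1, Fzd1 was called higher in VP4:2 (0.94, adjusted p = 0.0169) and in CC4:2 (1.18, adjusted p = 0.00316) than in Control. Over the 12 samples Fzd1 ranged from 12.7 to 44.2 CPM, Fzd5 from 3.66 to 7.25 CPM and Fzd9 from 0.281 to 1.18 CPM. The groups overlapped for Fzd5 and Fzd9, while all CC4:2 values of Fzd1 lay above those of CC4:4. Fzd6, a planar polarity receptor, was -0.33 ± 0.30 (adjusted p = 0.554) in VP4:2 against CC4:2 and -0.16 ± 0.30 (adjusted p = 0.690) in CC4:2 against Control.

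The LRP coreceptors pass the Wnt signal to β-catenin. Lrp6 had 84.5, 101 and 89.6 CPM in VP4:2 stumps, 118, 134 and 122 in CC4:2, 60.2, 58.3 and 72.1 in CC4:4 and 57.8, 55.8 and 45.5 in Control. No 2 groups overlapped: VP4:2 lay below CC4:2, and CC4:4 lay below both and just above Control. Lrp6 differed by -0.44 ± 0.13 (adjusted p = 0.0760) in VP4:2 against CC4:2, 0.79 ± 0.13 (adjusted p = 0.00538) in VP4:2 against Control, 0.97 ± 0.13 (adjusted p = 0.000460) in CC4:2 against CC4:4 and 1.23 ± 0.13 (adjusted p = 0.000112) in CC4:2 against Control. The last 3 were called with each library left out, and the first was called by DESeq2 but not by edgeR.

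Lrp5 had 52.0, 66.1 and 53.6 CPM in VP4:2 stumps, 53.4, 135 and 74.5 in CC4:2, 58.4, 32.2 and 50.5 in CC4:4 and 51.2, 39.1 and 27.9 in Control. CC4:2 replicate 2 was far above the other 11 samples, and CC4:2 was above Control by a narrow margin in its lowest sample. Lrp5, known for its control of bone mass, differed by 1.15 ± 0.34 (adjusted p = 0.0202) in CC4:2 against Control, where the call was lost without CC4:2 replicate 2 or Control replicate 3 (0.70 to 1.41 over the 6 omissions, adjusted p up to 0.0918), and by 0.90 ± 0.34 (adjusted p = 0.0588) in CC4:2 against CC4:4.

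**Figure D4:**
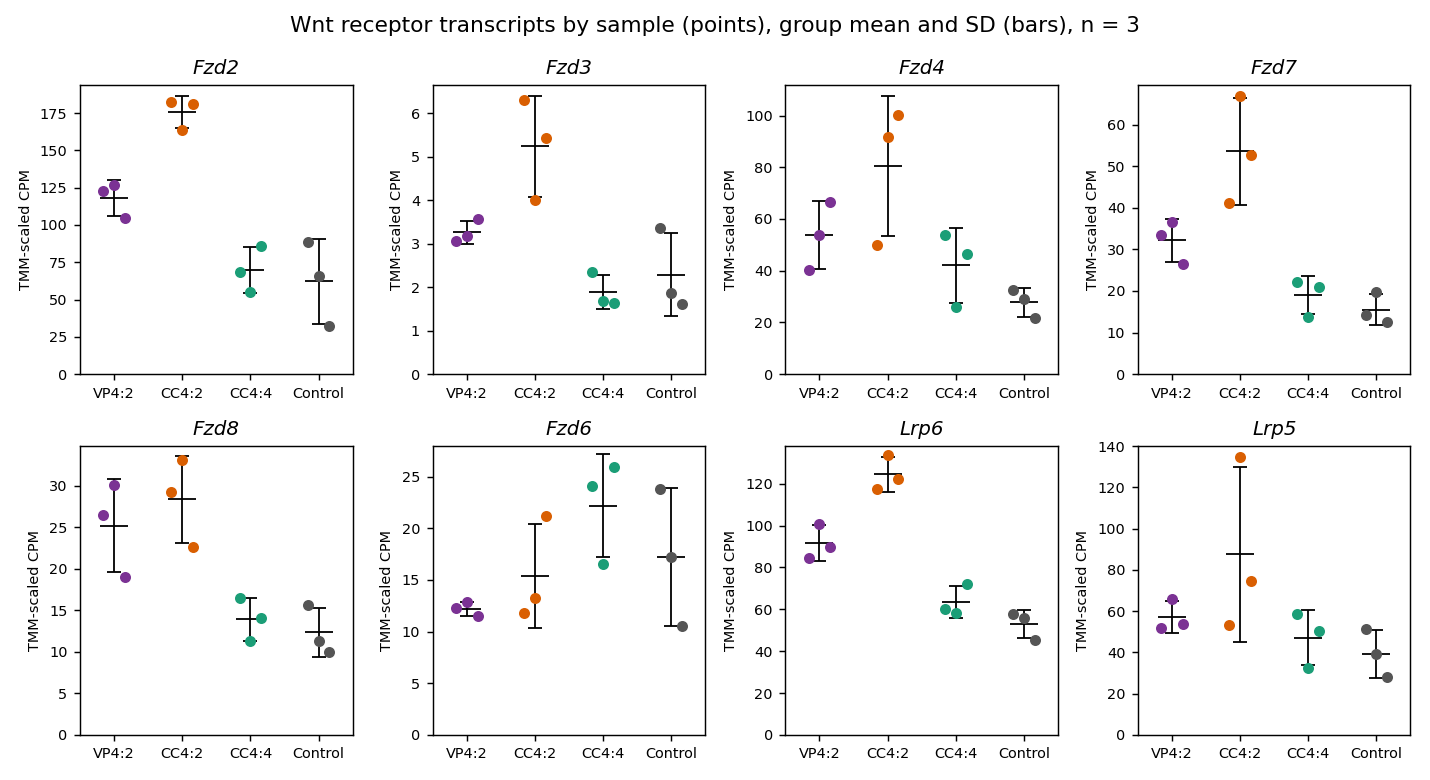
TMM-scaled CPM of 6 Frizzled genes and both LRP coreceptor genes in each sample, with the group mean and SD (n = 3); the vertical scale differs between panels. Lrp6 averaged 91.7 ± 8.48 CPM in VP4:2, 124 ± 8.37 in CC4:2, 63.5 ± 7.48 in CC4:4 and 53.0 ± 6.59 in Control with no overlap, while Fzd6 was called in no comparison by edgeR.

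Of the 4 R-spondin genes 3 were tested. Rspo1 had 7.62, 7.30 and 9.36 CPM in VP4:2 stumps, 6.51, 6.26 and 4.65 in CC4:2, 8.45, 10.4 and 9.71 in CC4:4 and 10.01, 6.33 and 7.59 in Control. CC4:2 was below VP4:2 and CC4:4 without overlap and overlapped Control. Rspo1 differed by -0.71 ± 0.22 (adjusted p = 0.0243) in CC4:2 against CC4:4, where the call was lost without CC4:2 replicate 3, CC4:4 replicate 2 or CC4:4 replicate 3 (-0.80 to -0.58 over the 6 omissions, adjusted p up to 0.0847), and by 0.48 ± 0.22 (adjusted p = 0.227) in VP4:2 against CC4:2. Rspo2 was under 1 CPM in every group mean, with 13 counts over the VP4:2 libraries, 30 over CC4:2, 37 over CC4:4 and 2 over Control. The ratio of scaled counts in CC4:2 against Control was 11.5 (95% exact interval 2.93 to 99.8, counting error only), and the edgeR call (adjusted p = 0.0429) was lost without CC4:2 replicate 2, CC4:2 replicate 3, Control replicate 2 or Control replicate 3 (2.97 to 6.19 over the 6 omissions, adjusted p up to 0.111). The same ratio was 17.1 (4.42 to 147) in CC4:4 against Control and 5.05 (1.14 to 46.1) in VP4:2 against Control. In CC4:4 against Control the edgeR log2 fold change was 3.95 ± 1.19 (unadjusted p = 0.00713, adjusted p = 0.929), which was not called. A higher Rspo2 level than in Control was thus not particular to CC4:2. Rspo3 was called in no comparison with all 12 samples, ranged from 0.112 to 2.09 CPM over the 12 samples and was 1.16 ± 0.67 (adjusted p = 0.180) in CC4:2 against Control. Without Control replicate 2 that value was 2.29 and was called (edgeR adjusted p = 0.0227).

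Among the 10 secreted antagonists 8 were tested. Sfrp5 had 124, 125 and 125 CPM in VP4:2 stumps, 341, 311 and 214 in CC4:2, 39.4, 25.0 and 30.4 in CC4:4 and 5.40, 31.5 and 22.1 in Control. CC4:2 lay above all other samples, the VP4:2 samples lay close together between CC4:2 and the rest, and CC4:4 overlapped Control, whose replicate 1 was the lowest of all. Sfrp5, an antagonist released by fat cells that binds WNT5A, differed by -1.21 ± 0.46 (adjusted p = 0.154) in VP4:2 against CC4:2, 2.67 ± 0.49 (adjusted p = 0.00724) in VP4:2 against Control, 3.19 ± 0.50 (adjusted p = 0.000878) in CC4:2 against CC4:4 and 3.88 ± 0.51 (adjusted p = 0.000306) in CC4:2 against Control. The last 3 were called, and held with each library left out (2.22 to 3.20, 3.04 to 3.38 and 3.43 to 4.41). The 6 adipocyte markers were also all higher in VP4:2 and in CC4:2 than in Control. They summed to 1027 to 2410 CPM in VP4:2, 820 to 2066 in CC4:2, 289 to 1268 in CC4:4 and 201 to 394 in Control, and their part in the Sfrp5 result was not tested.

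Dkk2 had 7.01, 9.51 and 8.76 CPM in VP4:2 stumps, 13.0, 28.0 and 23.7 in CC4:2, 14.7, 9.49 and 3.35 in CC4:4 and 7.20, 8.59 and 8.16 in Control. CC4:2 lay above VP4:2 and Control without overlap, and CC4:4 overlapped all other groups. Dkk2, which binds LRP coreceptors, differed by 1.43 ± 0.44 (adjusted p = 0.0220) in CC4:2 against Control, where the call was lost without CC4:2 replicate 2, CC4:2 replicate 3, Control replicate 1 or Control replicate 3 (1.20 to 1.70 over the 6 omissions, adjusted p up to 0.0753). It differed by 1.23 ± 0.43 (adjusted p = 0.0437) in CC4:2 against CC4:4, where the call was lost without CC4:2 replicate 2, CC4:2 replicate 3, CC4:4 replicate 2 or CC4:4 replicate 3 (0.83 to 1.75 over the 6 omissions, adjusted p up to 0.134). Its value in VP4:2 against CC4:2 was -1.35 ± 0.43 (adjusted p = 0.0977), which DESeq2 called lower.

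Sfrp1 had 255, 414 and 318 CPM in VP4:2 stumps, 173, 147 and 143 in CC4:2, 184, 248 and 269.7 in CC4:4 and 256, 235 and 177 in Control. CC4:2 lay below all other samples, and VP4:2 overlapped CC4:4 and Control. Sfrp1, which binds Wnt ligands and Frizzled receptors, was higher in VP4:2 than in CC4:2 by 1.09 ± 0.22 (adjusted p = 0.0153), the single call in that comparison, which was lost without VP4:2 replicate 2, CC4:2 replicate 2 or CC4:2 replicate 3 (0.90 to 1.25 over the 6 omissions, adjusted p up to 0.0627). With only replicates 1 and 2, sequenced on a NovaSeq, it was 1.07 (adjusted p = 0.182). Its values were -0.60 ± 0.22 (adjusted p = 0.0502) in CC4:2 against CC4:4 and -0.53 ± 0.22 (adjusted p = 0.0725) in CC4:2 against Control. DESeq2 called Sfrp1 lower in both (adjusted p = 0.0214 and 0.0417) and higher in VP4:2 than in Control (0.56, adjusted p = 0.0498). In CC4:2 against CC4:4 edgeR called it with RLE scaling (adjusted p = 0.0499), with only those 6 samples (0.0432) and without CC4:4 replicate 1 (0.0278), and in CC4:2 against Control without Control replicate 3 (0.0482). With all 12 samples the edgeR test called Sfrp2, Sfrp4, Frzb, Dkk3 and Wif1 in no comparison. Without Control replicate 1, Sfrp4 was called higher in VP4:2 (0.90, adjusted p = 0.0337) and in CC4:2 (0.76, adjusted p = 0.0400) than in Control. With only the 6 samples compared, Dkk3 was called lower in CC4:2 than in CC4:4 (-0.86, adjusted p = 0.0198). Over the 12 samples Sfrp4 ranged from 207 to 499 CPM, Frzb, an SFRP known from cartilage, from 2.28 to 18.7 CPM and Wif1 from 0.808 to 2.30 CPM. Sfrp2 ranged from 94.2 to 253 CPM in VP4:2, 246 to 565 in CC4:2, 171 to 342 in CC4:4 and 222 to 280 in Control, and Control replicate 1 had the highest Dkk3 level of the 12 samples at 256 CPM.

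Axin2 encodes a scaffold of the β-catenin destruction complex and is induced by β-catenin in most cell types, so it is often read as a record of pathway activity. Axin2 had 6.80, 11.01 and 6.87 CPM in VP4:2 stumps, 10.4, 14.7 and 10.49 in CC4:2, 7.16, 7.996 and 4.38 in CC4:4 and 7.03, 7.42 and 7.67 in Control. CC4:2 lay above CC4:4 and Control without overlap, and VP4:2 replicate 2 lay within the CC4:2 range while the other VP4:2 samples lay below it. Axin2 differed by 0.86 ± 0.27 (adjusted p = 0.0266) in CC4:2 against CC4:4, where the call was lost without CC4:2 replicate 2, CC4:4 replicate 1 or CC4:4 replicate 3 (0.63 to 1.03 over the 6 omissions, adjusted p up to 0.0932). It was 0.69 ± 0.27 (adjusted p = 0.0596) in CC4:2 against Control, not called, although DESeq2 called it there (0.69, adjusted p = 0.0417). Its values were -0.53 ± 0.27 (adjusted p = 0.275) in VP4:2 against CC4:2, 0.16 ± 0.27 (adjusted p = 0.713) in VP4:2 against Control and -0.18 ± 0.27 (adjusted p = 0.981) in CC4:4 against Control.

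**Figure D5:**
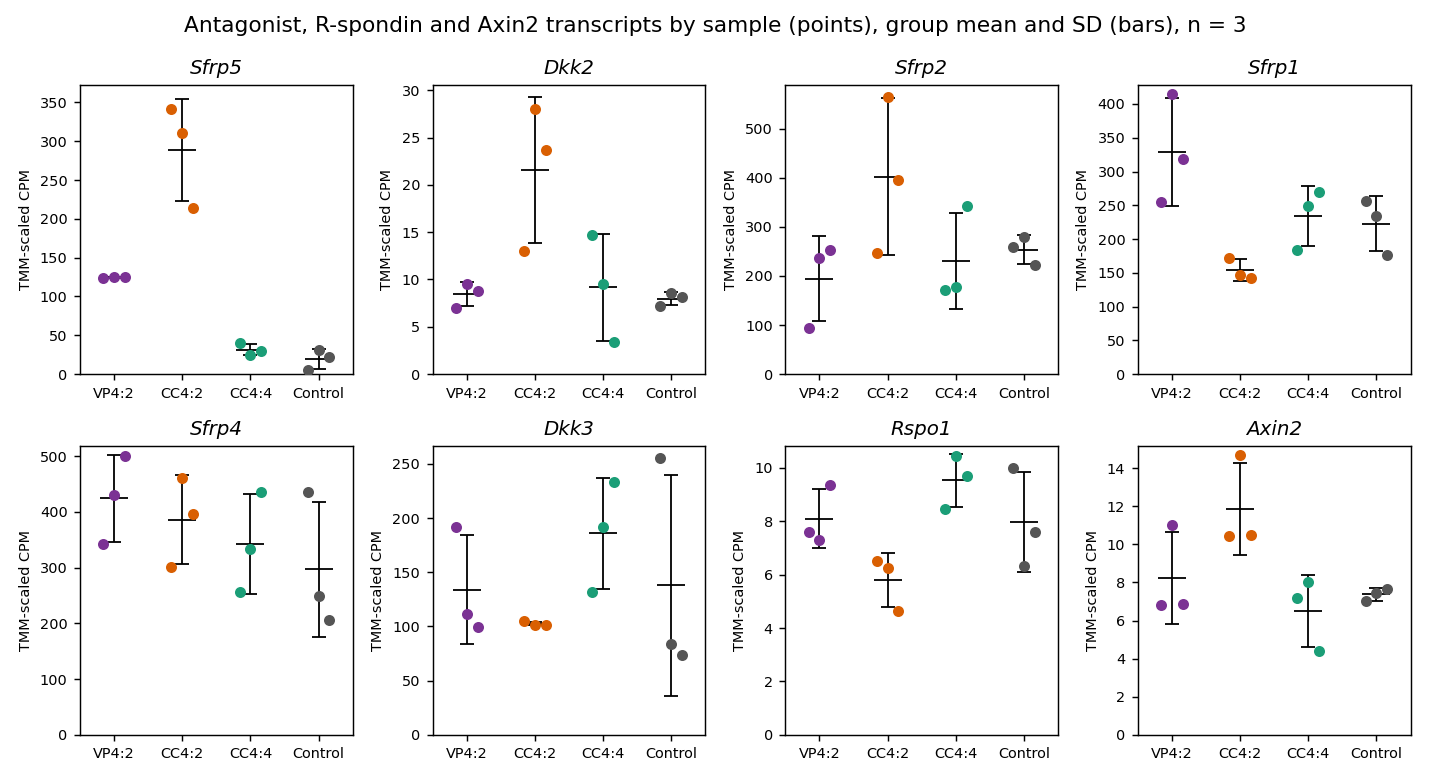
TMM-scaled CPM of 6 antagonist genes, Rspo1 and Axin2 in each sample, with the group mean and SD (n = 3); the vertical scale differs between panels. Sfrp5 averaged 125 ± 0.800 CPM in VP4:2, 289 ± 66.2 in CC4:2, 31.6 ± 7.29 in CC4:4 and 19.7 ± 13.2 in Control, while Sfrp1 was lowest in CC4:2 and highest in VP4:2.

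The rest of the pathway was described with 4 lists that share some genes. Of 18 tested genes for Wnt secretion and surface control, 10 were higher and 4 lower in CC4:2 than in Control (median 1.03), where 20.3% of all tested genes were higher and 23.2% lower. In CC4:2 against CC4:4, 9 were higher and 4 lower, where 18.5% and 20.7% of all tested genes were. There were 3 higher and 3 lower in VP4:2 than in Control (9.3% and 9.57% of all tested genes), and 1 higher and 0 lower in VP4:2 than in CC4:2 (5.23% and 0.999%). The 4 lower in CC4:2 than in Control and the 1 higher in VP4:2 than in CC4:2 were shares close to those of all tested genes. With each library left out, 68 of the 105 calls over the 4 lists and 5 comparisons held, and of the list genes described here those that did not are named. Lgr4, an R-spondin receptor, had 37.7, 42.9 and 37.5 CPM in VP4:2, 76.5, 55.6 and 60.3 in CC4:2, 19.1, 9.69 and 16.5 in CC4:4 and 8.72, 19.2 and 12.8 in Control. CC4:2 was above VP4:2, and VP4:2 above the other groups, without overlap, and Lgr4 differed by 1.54 ± 0.30 (adjusted p = 0.00836) in VP4:2 against Control and 2.25 ± 0.30 (adjusted p = 0.000336) in CC4:2 against Control. Reck, a membrane protein that acts with Wnt7 ligands, differed by 2.00 ± 0.23 (adjusted p = 0.000142) in CC4:2 against Control, and Apcdd1, a membrane inhibitor of Wnt signalling, by 2.51 ± 0.32 (adjusted p = 0.000241).

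Lower in CC4:2 than in Control were Rnf43, a ubiquitin ligase that removes Frizzled from the surface (-2.25 ± 0.38, adjusted p = 0.00110), Draxin, a secreted axon guidance protein (-4.87 ± 0.99, adjusted p = 0.00290), and the surface proteoglycan gene Sdc1 (-4.31 ± 0.24, adjusted p = 6.9e-06). Unlike Rnf43, the related gene Znrf3 was higher in CC4:2 than in Control (1.385, and 1.19 to 1.62 over the 6 omissions, edgeR adjusted p up to 0.0335). Draxin had 24.5, 3.20 and 4.36 CPM in Control and 0.159, 0.451 and 0.470 in CC4:2. Its difference ranged from -5.27 to -3.36 over the 6 omissions, so its size rested in part on single libraries. Sdc1 had 155, 202 and 187 CPM in VP4:2, 19.1, 31.4 and 17.9 in CC4:2, 365, 352 and 335 in CC4:4 and 497, 415 and 447 in Control. CC4:2 was below VP4:2, which was below CC4:4 and Control, without overlap, and Sdc1 was the 1 gene of this list that differed in VP4:2 against CC4:2 (2.99 ± 0.23, adjusted p = 9.6e-05). Sdc1 is also a surface marker of plasma cells, and the lymphocyte markers, which included the plasma cell gene Jchain, were lowest in CC4:2, and their part in this result was not tested.

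Of 15 tested β-catenin target genes, 9 were higher and 4 lower in CC4:2 than in Control (median 1.27), against 20.3% and 23.2% of all tested genes, and 9 higher and 4 lower in CC4:2 than in CC4:4, against 18.5% and 20.7%. There were 4 higher and 2 lower in VP4:2 than in Control (9.3% and 9.57% of all tested genes), and 1 higher and 2 lower in VP4:2 than in CC4:2 (5.23% and 0.999%). The 4 lower in CC4:2 than in Control and the 1 higher in VP4:2 than in CC4:2 were again near the shares of all tested genes. Nkd1, a feedback inhibitor of Wnt signalling, had 12.5, 15.4 and 10.6 CPM in VP4:2, 28.4, 28.3 and 13.6 in CC4:2, 4.99, 2.58 and 4.38 in CC4:4 and 4.39, 6.25 and 3.63 in Control. CC4:2 replicate 3 lay within the VP4:2 range, and both groups were above CC4:4 and Control. Nkd1 differed by 1.43 ± 0.34 (adjusted p = 0.0182) in VP4:2 against Control, 2.55 ± 0.35 (adjusted p = 0.000492) in CC4:2 against CC4:4 and 2.30 ± 0.35 (adjusted p = 0.000585) in CC4:2 against Control, and the call in VP4:2 against Control was lost without VP4:2 replicate 1, VP4:2 replicate 2 or Control replicate 3 (1.28 to 1.69 over the 6 omissions, adjusted p up to 0.0696). The cell cycle gene Ccnd1 (1.38 ± 0.16, adjusted p = 0.000148) and the growth factor gene Bmp4 (1.41 ± 0.19, adjusted p = 0.000319) were also higher in CC4:2 than in Control.

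Cd44, an adhesion receptor (-1.37 ± 0.19, adjusted p = 0.000390), and Tcf7, a TCF/LEF factor abundant in T cells (-2.04 ± 0.31, adjusted p = 0.000639), were lower in CC4:2 than in Control. So were the target genes Rnf43, given above, and Lef1 (-1.39, and -1.655 to -1.005 over the 6 omissions, edgeR adjusted p up to 0.0130), opposite to Nkd1. Cd44 was higher in VP4:2 than in CC4:2 (1.20 ± 0.19, adjusted p = 0.00377), while Bmp4 (-0.89 ± 0.18, adjusted p = 0.0173) and the growth factor gene Fgf18 (-1.78 ± 0.44, adjusted p = 0.0390) were lower. The Bmp4 call was lost without VP4:2 replicate 1, VP4:2 replicate 3, CC4:2 replicate 2 or CC4:2 replicate 3 (-0.95 to -0.84 over the 6 omissions, adjusted p up to 0.0810), and the Fgf18 call was lost without VP4:2 replicate 1, VP4:2 replicate 2, VP4:2 replicate 3, CC4:2 replicate 2 or CC4:2 replicate 3 (-2.06 to -1.54 over the 6 omissions, adjusted p up to 0.166). The summed lymphocyte markers of the 3 CC4:2 samples (15.7 to 193 CPM) lay below those of every other sample. The plasma cell gene Jchain was the largest term of that sum, with a mean of 71.0 CPM in CC4:2 and 3685 in Control. The T cell genes Cd3e and Cd3g averaged 2.51 and 2.79 CPM in CC4:2, 13.7 and 12.2 in VP4:2, 43.7 and 37.4 in CC4:4 and 44.7 and 37.2 in Control. The part of lymphocytes in the Tcf7 value was not tested.

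Of 30 β-catenin pathway genes inside the cell, 12 were higher and 2 lower in CC4:2 than in Control (median 0.42), against 20.3% and 23.2% of all tested genes, and 10 higher and 2 lower in CC4:2 than in CC4:4, against 18.5% and 20.7%. In VP4:2 against Control 4 were higher and 1 lower (9.3% and 9.57% of all tested genes), and in VP4:2 against CC4:2 0 were higher and 1 lower (5.23% and 0.999%). The 4 higher in VP4:2 than in Control were a share not far from that of all tested genes. The 2 lower in CC4:2 than in Control, and than in CC4:4, were Tcf7 and Lef1, which are also in the target list. Apc, a scaffold of the destruction complex, differed by -0.48 ± 0.10 (adjusted p = 0.0177) in VP4:2 against CC4:2, 0.36 ± 0.10 (adjusted p = 0.0334) in VP4:2 against Control, 0.85 ± 0.10 (adjusted p = 0.000261) in CC4:2 against CC4:4 and 0.84 ± 0.10 (adjusted p = 0.000192) in CC4:2 against Control. The call in VP4:2 against CC4:2 was lost without VP4:2 replicate 1, VP4:2 replicate 2, VP4:2 replicate 3, CC4:2 replicate 2 or CC4:2 replicate 3 (-0.51 to -0.44 over the 6 omissions, adjusted p up to 0.105), and that in VP4:2 against Control was lost without VP4:2 replicate 1, VP4:2 replicate 2, VP4:2 replicate 3 or Control replicate 3 (0.33 to 0.45 over the 6 omissions, adjusted p up to 0.113). The related gene Apc2 (2.19 ± 0.33, adjusted p = 0.000575) and the corepressor gene Tle1 (2.27 ± 0.33, adjusted p = 0.000481) were also higher in CC4:2 than in Control.

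Of 20 genes for planar polarity and other Wnt receptors, 9 were higher and 1 lower in CC4:2 than in Control (median 0.53), against 20.3% and 23.2% of all tested genes, and 6 higher and 1 lower in CC4:2 than in CC4:4, against 18.5% and 20.7%. In VP4:2 against Control 2 were higher and 0 lower (9.3% and 9.57% of all tested genes, so the 2 higher were near the background), and in VP4:2 against CC4:2 there were 0 in either direction. Ror1, a receptor of WNT5A, had 11.8, 15.2 and 8.66 CPM in VP4:2, 20.2, 22.6 and 14.6 in CC4:2, 5.81, 4.34 and 7.87 in CC4:4 and 6.02, 6.48 and 4.85 in Control. VP4:2 and CC4:2 lay above CC4:4 and Control without overlap and overlapped each other. Ror1 differed by 1.03 ± 0.28 (adjusted p = 0.0271) in VP4:2 against Control and 1.72 ± 0.28 (adjusted p = 0.000854) in CC4:2 against Control, and the polarity gene Prickle1 by 0.89 ± 0.17 (adjusted p = 0.00757) and 1.40 ± 0.17 (adjusted p = 0.000184) in these comparisons. The Ror1 call in VP4:2 against Control was lost without VP4:2 replicate 1, VP4:2 replicate 2 or Control replicate 3 (0.82 to 1.22 over the 6 omissions, adjusted p up to 0.106). In CC4:4 against Control, 0 genes of all 4 lists were called by edgeR.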

How the data were processed

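Per the labels' protocols, stranded libraries were made from poly(A)-selected RNA of the 12 stumps. The NovaSeq X Plus read replicates 1 and 2 of each group and the DNBSEQ-T7 read replicate 3, which balances platform over groups. The table deposited by the authors holds expected counts per gene, and no normalization is recorded for it. HISAT2, StringTie, RSEM and DESeq2 were used upstream, per the submitters' processing notes. The sources used here give no versions, roles, genome build, annotation or use of strand in counting, so overlapping and antisense genes cannot be told apart. The 12 deposited files were identical, and 1 was read.

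Of the 46 genes, 4 (Sfrp1, Sfrp5, Rspo1 and Wnt9b) held values that were not whole. Counts were rounded and tested with edgeR 4.0.16 (R 4.3.3, limma 3.58.1): TMM scaling, filterByExpr, the quasi-likelihood test, 1 fit of all 12 samples with a term per group, 8 residual degrees of freedom and no covariate. Genes were called at an adjusted p under 0.05 over all 15712 tested genes. The SE is the size of the log2 fold change over the root of its F statistic. Totals of 13763067 to 18632280 counts make 1 count 0.0522 to 0.0808 CPM. No replicates agreed within sampling noise, with chi-square per degree of freedom from 48.4 to 327. The fit was tested on simulated data.

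The members and lists were chosen with earlier results of these data known. Values in every sample are given for members called in at least 1 comparison with a mean of at least 1 CPM in some group, and for Axin2. Other lists name at most 6 called genes of smallest p a comparison, and Znrf3 and Lef1 were named beside them. All those printed were picked after their values were seen. In VP4:2 against CC4:2, deviations of same-numbered samples correlated at 0.12, 0.28 and 0.43, and those of other numbers at -0.42 to 0.18. VP4:2 replicate 1 correlated better with CC4:2 replicate 2 (0.18) than with CC4:2 replicate 1 (0.12). Replicate 3, at 0.43, was also the DNBSEQ sample of each group, and the labels do not say what a number marks. Pairing by number was thus not established. In VP4:2 against CC4:2 the replicate block gave the same call count of 1. Alternatives were RLE scaling, no filter on low counts, DESeq2 1.42.0, only the 6 samples compared, the replicate block, NovaSeq samples only and each library left out. Leaving out each library for the called genes of the other lists was added after the data were seen. Promoters came from RefSeq (GRCr8).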

Additional observations from a re-analysis of the deposited data

How the results depend on the processing

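Of 45 calls of Wnt genes over the 5 comparisons, 21 held with each library left out and 15 under all alternatives, and no alternative called a gene the opposite way. With only the NovaSeq samples the counts called were 9 (CC4:2 against Control), 10 (CC4:2 against CC4:4), 0 (VP4:2 against CC4:2; 6 at an unadjusted p under 0.05) and 0 (VP4:2 against Control; 13 unadjusted). Of all 15800 tested genes this setting called 3220, 3253, 202 and 19 in these comparisons, in that order. The fit of all 12 samples called 6835, 6156, 979 and 2964 of 15712. The share of all tested genes at the unadjusted level was not taken for the NovaSeq setting, which leaves 2 samples a group. With 1 library left out in turn the counts ranged from 11 to 18 in CC4:2 against Control, lowest without CC4:2 replicate 2. The range was the same in CC4:2 against CC4:4, from 11 to 18, with 11 without CC4:4 replicate 2 and 12 without CC4:2 replicate 2, CC4:2 replicate 3 or CC4:4 replicate 3. Counts in VP4:2 against CC4:2 ranged from 0 to 1, with 0 without VP4:2 replicate 2, CC4:2 replicate 2 or CC4:2 replicate 3. In VP4:2 against Control they ranged from 3 to 11, with 4 without VP4:2 replicate 1, 3 without VP4:2 replicate 2 and 11 without Control replicate 1. Over all genes, the calls with 1 library left out ranged from 5244 to 7233 in CC4:2 against Control and from 4218 to 5392 in CC4:2 against CC4:4. They ranged from 466 to 746 in VP4:2 against CC4:2 and from 1166 to 4294 in VP4:2 against Control. These fits tested 15938 to 15989 genes. The 6 samples of VP4:2 against CC4:2 alone gave 6 calls among the 31 Wnt genes tested in that fit, where 1162 of 15049 genes were called. These were Sfrp1, higher, and Dkk2, Sfrp5, Wnt6, Fzd2 and Wnt10a, lower. With all 12 samples DESeq2 gave 5 in VP4:2 against CC4:2 (11.9% of all tested genes) and 13 in VP4:2 against Control (25.8%). The causes were not tested. Axin2 in CC4:4 against Control, never called, was 0.10 with only the NovaSeq samples and ranged from -0.33 to 0.068 with 1 library left out, highest without CC4:4 replicate 3. In VP4:2 against Control, also never called, it ranged from -0.11 (without VP4:2 replicate 2) to 0.28.

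Outside VP4:2 against CC4:2, deviations of same-numbered samples correlated at -0.40 to 0.16. In 0 of 5 comparisons did every sample correlate best with its own number, so pairing by number was not established in any of them. The replicate block changed no call in VP4:2 against CC4:2 (1). It gave 17 calls in CC4:2 against Control, 0 in CC4:4 against Control, 14 in CC4:2 against CC4:4 and 7 in VP4:2 against Control. Of all 15712 tested genes the block called 6334, 0, 5705 and 2505 in these comparisons, in that order. In VP4:2 against CC4:2 it called 853 of them. The shares of Wnt genes called in CC4:2 against CC4:4 and in VP4:2 against Control were near those of all tested genes. Under the replicate block Axin2 in CC4:2 against Control passed the threshold (0.65, edgeR adjusted p = 0.0428). The depth limits the 10 untested genes, which had at most 5 counts in a library, and Wnt4, Wnt9b and Rspo2, whose lowest group sums were 9, 7 and 2 counts.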
